A study of Mus musculus with 4 samples.

Results

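The mitochondrial ribosomal protein genes are the nuclear genes for the proteins of the ribosome inside mitochondria. They were taken as the protein-coding mouse genes with a symbol that starts with Mrpl or Mrps and a number, pseudogenes left out, which gave 78 of the 53379 Ensembl identifiers in the count table. Their transcripts were measured by RNA sequencing in tumour-associated macrophages, the macrophages that live in a tumour, from mice fed a high-fat diet (HFD, 2 mice) and from mice fed a control diet (CD, 2 mice). In both groups the tumours were MC38, a mouse colon carcinoma line, and the cells were sorted as CD45/CD11b/F4/80-positive 21 days after implantation. The make-up of the diets and the strain, sex and age of the mice were not given in the sources used here, and no allele or other treatment is named for either group. Each library is named for a mouse, so the spread between libraries was taken as the spread between animals.

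The mitochondrial ribosome translates the few mRNAs of the mitochondrial genome, all of which encode subunits of the respiratory chain and the ATP synthase. Its RNA is made in the mitochondrion, while all of its proteins are encoded in the nucleus, translated in the cytosol and imported. Some of these proteins descend from the bacterial ancestor of mitochondria, and others have no bacterial counterpart. The small subunit reads the mRNA, and the large subunit joins the amino acids and passes the growing chain to the inner membrane.

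The libraries held 34148682 to 37159552 counts. Over the tested genes, log2 expression correlated with r = 0.990 between the HFD libraries and 0.977 between the CD libraries, against 0.932 to 0.947 across diets. The sort antigens were abundant in every library: Ptprc, which encodes CD45, had 509 and 402 CPM in HFD against 534 and 573 CPM in CD, where CPM stands for counts relative to the library's total scaled by edgeR's TMM method, per 1000000. Of the 78 genes, 77 passed the filter on low counts and were tested. The libraries held 68859 and 73158 counts of the family in HFD and 55957 and 61309 in CD, which is 0.187 and 0.197% of all counts in HFD and 0.164 and 0.165% in CD.

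No mitochondrial ribosomal protein gene was called higher or lower between the diets, yet most of them had slightly higher values in HFD. A gene was called at an adjusted p below 0.05 in edgeR's quasi-likelihood test, adjusted by the Benjamini-Hochberg method over all 18422 genes tested. Of the 77 members, 0 were called higher, where 2.61% of all tested genes were, and 0 were called lower, where 7.91% were. DESeq2 called 0 in either direction as well, against 5.25% higher and 9.11% lower over the genes it tested. At an unadjusted edgeR p below 0.05, 10 members were higher and 0 lower, against 13.6% and 17.7% of all tested genes. By DESeq2 the counts at that unadjusted level were 9 and 0.

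The direction of the small differences was less evenly spread than the calls. The log2 fold change of HFD over CD was positive for 65 of the 77 members, where it was positive for 50.4% of all tested genes. Its median was 0.17 over the members and 0.00 over all tested genes, and its range over the members was -0.40 for Mrps12 to 0.78 for Mrpl1. Both HFD libraries lay above both CD libraries for 41 members and below them for 3, and the diets overlapped for the other 33. Over all tested genes those shares were 32.2% above and 31.6% below. With RLE or upper quartile scaling in place of TMM, 60 or 57 members had a positive log2 fold change, and the median was 0.16 or 0.14. The level of a gene bears on this comparison. Of the members, 73 had an average log2 CPM between 2 and 6, a range chosen after the values were seen. In that range 0 members were called higher, where 3.72% of all tested genes were. There 60.7% of all tested genes had a positive log2 fold change, 41.3% had both HFD libraries above both CD libraries, and the median was 0.12. The typical standard error (SE) of a member's log2 fold change was 0.16, about as large as the median itself. Members of the family share the same 4 mice, so their number does not stand for replicates.

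**Figure D1:**
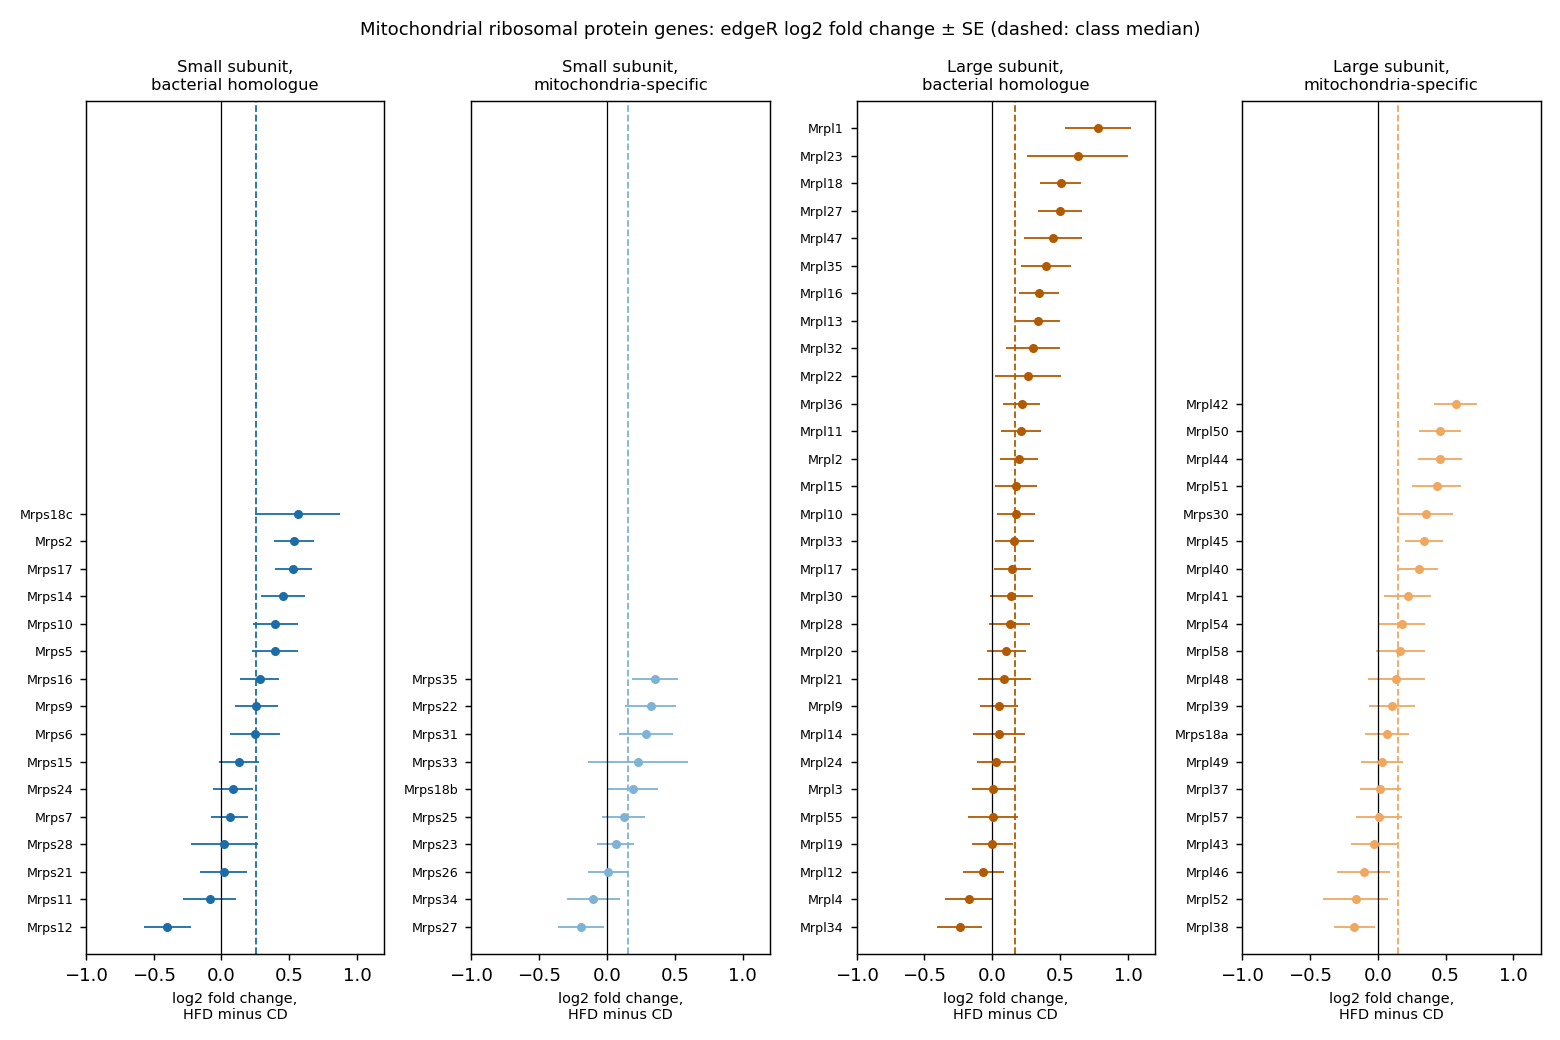
Log2 fold change of HFD over CD for the 76 tested genes of ribosome proteins, in 4 classes, with 1 SE on each side. Points right of the solid line at 0 were higher in HFD; the dashed lines mark the class medians, which lie between 0.15 and 0.25, and no gene was called.

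Summed over the family, the level was 1839 and 1907 CPM in the HFD libraries and 1725 and 1648 CPM in the CD libraries. Both HFD sums thus lay above both CD sums. The means were 1873 ± 47.9 CPM in HFD and 1687 ± 54.2 CPM in CD (SD, n = 2 each), a ratio of 1.11. The difference between the mice of a diet was smaller: the median member differed by 0.04 on the log2 scale between the HFD mice and by -0.05 between the CD mice, the second mouse over the first in each case. In bulk RNA a lower level in each cell and fewer cells that hold the transcript cannot be told apart.

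The small subunit had 26 tested genes, of which 22 had a positive log2 fold change, with a median of 0.21. Both HFD libraries lay above both CD libraries for 16 of them and below for 2, beside 32.2% and 31.6% of all tested genes, and 41.3% above in the level range of most members. The median was 0.25 for the 16 proteins classed as having a bacterial homologue and 0.16 for the 10 classed as specific to mitochondria. Of the small subunit, 0 genes were called in either direction, and the 3 with an unadjusted p below 0.05, where 13.6% of all tested genes were higher at that level, were Mrps17, Mrps2 and Mrps14. For Mrps14, the homologue of bacterial S14, the log2 fold change was 0.46 (adjusted p = 0.118), and after a correction for GC content and exon length it was 0.0011 (adjusted p = 0.996).

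Mrps17 encodes a homologue of bacterial S17, a protein that binds ribosomal RNA. It had 46.0 and 46.8 CPM in HFD, against 30.6 and 33.6 CPM in CD. The HFD libraries were close to each other and both above CD, and the log2 fold change was 0.53 (SE 0.14, edgeR adjusted p = 0.0616), the smallest p of the family. Mrps17 lies on chromosome 5 from 129715497 to 129722556 (GRCm38). Mrps2, the homologue of bacterial S2, had 50.04 and 43.03 CPM in HFD and 32.58 and 31.53 CPM in CD, with a log2 fold change of 0.54 (SE 0.15, edgeR adjusted p = 0.0684). The diets did not overlap, and the spread was larger within HFD than within CD. Mrps2 lies on chromosome 2 from 28468066 to 28471178. Without the filter on low counts, both genes passed the threshold, Mrps17 at an adjusted p of 0.0252 and Mrps2 at 0.0249. They were 2 of the 4 members called higher in that fit, where 5.16% of all genes were.

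The lowest log2 fold change of the family was that of Mrps12, which encodes the homologue of bacterial S12, a protein of the decoding centre. It had 15.7 and 18.5 CPM in HFD, against 20.9 and 24.2 CPM in CD, so both HFD libraries lay below both CD libraries. Its log2 fold change was -0.40 (SE 0.17, adjusted p = 0.178). Mrps12 lies on chromosome 7 from 28739641 to 28741820. Mrps27, which encodes a mitochondria-specific protein with RNA-binding pentatricopeptide repeats, was the other small subunit gene without overlap in that direction, with 12.8 and 13.6 CPM in HFD and 15.7 and 14.4 CPM in CD. Its log2 fold change of -0.19 (SE 0.17) was about the size of its error.

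The large subunit had 50 tested genes, of which 43 had a positive log2 fold change, with a median of 0.17. Both HFD libraries lay above both CD libraries for 25 and below for 1, again beside 32.2% and 31.6% of all tested genes. In the level range of most members, 41.3% of all tested genes had both HFD libraries above. Here the homologues of bacterial proteins and the mitochondria-specific proteins had almost the same median, 0.17 over 30 genes and 0.15 over 20 genes. Again 0 genes were called, and 7 had an unadjusted p below 0.05, all with the higher values in HFD, a share near the 13.6% of all tested genes.

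Mrpl1 had the highest log2 fold change of the family. It encodes the homologue of bacterial L1, which forms a mobile stalk beside the site where spent tRNA leaves the ribosome. Its level was 13.4 and 12.9 CPM in HFD, against 6.13 and 9.11 CPM in CD. The HFD libraries were alike, while the CD libraries lay apart from each other. The log2 fold change was 0.78 (SE 0.24, adjusted p = 0.0905). It moved with the CD mouse left out: without CD mouse 2, the higher one, it was 1.10 with an adjusted p of 0.0109, and without CD mouse 1 it was 0.53 with an adjusted p of 0.141. After the correction for GC content and exon length it was 0.48 (adjusted p = 0.145). In the fit without CD mouse 2, 4 members were called higher, where 10.1% of all tested genes were. Mrpl1 lies on chromosome 5 from 96209493 to 96266727.

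Mrpl42, a mitochondria-specific protein of the large subunit, had 22.97 and 22.31 CPM in HFD and 14.43 and 15.94 CPM in CD. Its log2 fold change was 0.58 (SE 0.16, adjusted p = 0.0685), and it passed the threshold at 0.0406 without CD mouse 2. After the correction for GC content and exon length it was 0.33 (adjusted p = 0.150). Mrpl42 lies on chromosome 10 from 95480805 to 95501940. The other large subunit genes with an unadjusted p below 0.05 had log2 fold changes between 0.34 and 0.50. They were Mrpl18 (0.50), the homologue of the bacterial L18 protein, Mrpl27 (0.50), the homologue of L27 near the site of peptide bond formation, Mrpl50 (0.46), Mrpl44 (0.46), which carries an RNase III-like fold, and Mrpl45 (0.34), which holds the ribosome at the inner membrane. Their adjusted p ran from 0.0825 for Mrpl18 to 0.157 for Mrpl45. After the correction, Mrpl50 was at 0.15 (adjusted p = 0.472), while Mrpl44 was at 0.48 (adjusted p = 0.0712). Mrpl51, with a log2 fold change of 0.44 and an adjusted p of 0.165, was called without CD mouse 2, at an adjusted p of 0.0414 and a log2 fold change of 0.63.

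The lowest log2 fold changes of the large subunit were small against their errors. Mrpl34, the homologue of bacterial L34, had 22.0 and 25.1 CPM in HFD and 30.1 and 25.5 CPM in CD, with a log2 fold change of -0.24 (SE 0.17, edgeR adjusted p = 0.359). It was the large subunit gene with both HFD libraries below both CD libraries, and the gap between the nearest libraries was narrow. Mrpl38, Mrpl4 and Mrpl52 had log2 fold changes of -0.17, -0.17 and -0.16, and in each the diets overlapped. Mrpl4, the homologue of L4 in the wall of the exit tunnel, had 36.2 and 43.3 CPM in HFD and 49.7 and 39.9 CPM in CD. Mrpl52 had the widest scatter of these, with 24.5 and 36.8 CPM in HFD and 38.7 and 29.9 CPM in CD, and its sign turned without HFD mouse 1 or without CD mouse 1.

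**Figure D2:**
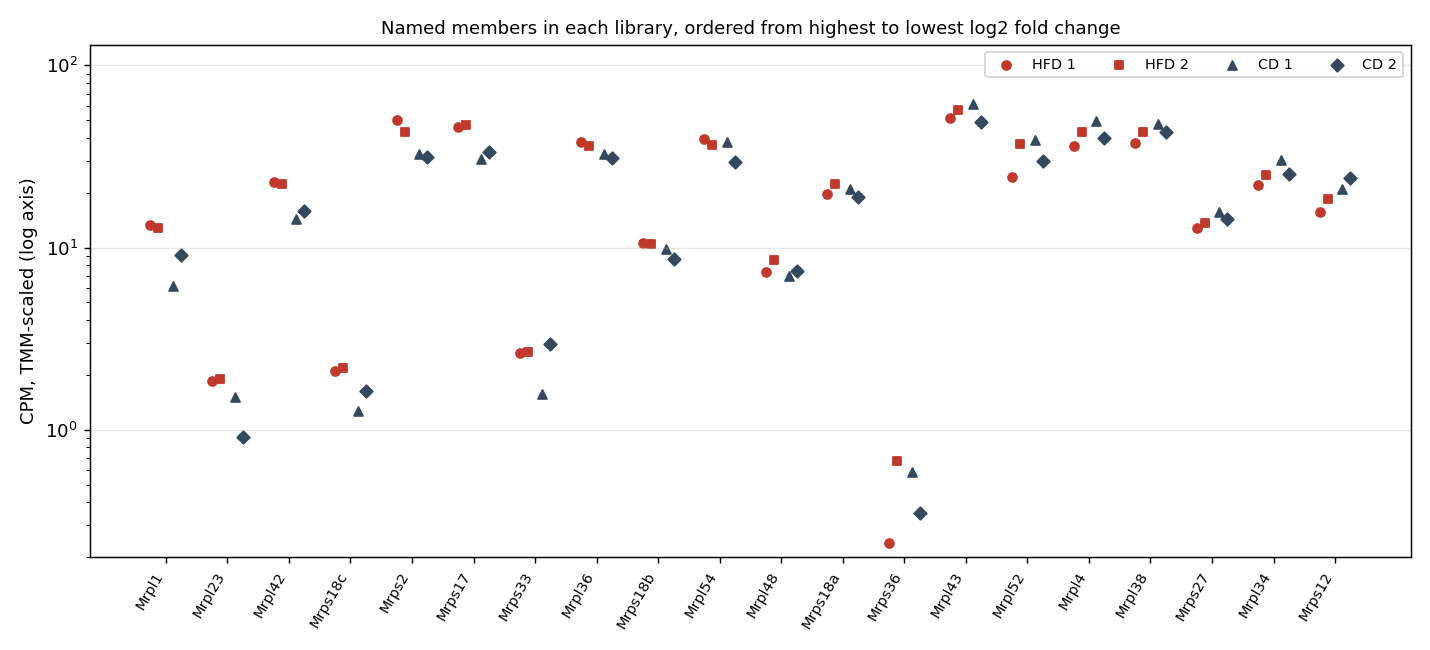
CPM on a log axis in each library for 20 named members, from the highest log2 fold change at the left to the lowest at the right; HFD mice are red and CD mice dark blue. Mrpl1, Mrpl42, Mrps2 and Mrps17 show both HFD points above both CD points, Mrps12 shows them below, and Mrps36 has fewer than 1 CPM in every library.

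The gene names hold some that belong elsewhere. Mrps30 was counted in the large subunit despite its name. The bacterial S18 protein has 3 relatives in mammals. Mrps18c keeps its place in the small subunit, as does the diverged Mrps18b, while Mrps18a sits in the large subunit. In the class medians, Mrps18a and Mrps18b were counted with the mitochondria-specific proteins although they are relatives of S18. Mrps18c had 2.11 and 2.19 CPM in HFD and 1.26 and 1.64 CPM in CD, with a log2 fold change of 0.56 (SE 0.31, edgeR adjusted p = 0.27). Mrps18b had 10.6 and 10.5 CPM in HFD and 9.77 and 8.68 CPM in CD, a log2 fold change of 0.19 (SE 0.19). Mrps18a had a log2 fold change of 0.07 (SE 0.16), and its libraries overlapped. None of the relatives was called, and differences between them were not tested.

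Mrps36 carries a ribosomal name but encodes an adaptor of the 2-oxoglutarate dehydrogenase complex, an enzyme of the citric acid cycle. It had only 9 and 26 counts in HFD and 19 and 13 counts in CD, and its log2 fold change of -0.02 had an SE of 0.64. Mrpl53, a mitochondria-specific protein of the large subunit, did not pass the filter, with 0 and 2 counts in HFD and 0 and 1 counts in CD. In the annotation, 695 of its 790 exonic bases are shared on the same strand with the gene model Gm42688, which held 132 counts over the 4 libraries. How reads that match both were assigned is not stated.

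Levels between genes were compared as CPM per kilobase of exon, the mean of the 4 libraries, with all annotated exons merged. Mrpl54, Mrpl34, Mrpl43 and Mrpl36 were highest, at 43.4, 42.3, 36.0 and 29.8 CPM per kilobase. All 4 belong to the large subunit. Between the diets, the first and the third of these overlapped in CPM: Mrpl54 had 39.3 and 36.7 in HFD and 37.8 and 29.4 in CD, and Mrpl43 had 51.2 and 57.2 in HFD and 61.6 and 49.0 in CD. Mrpl36, the homologue of the small bacterial protein L36, had 38.1 and 36.1 CPM in HFD and 32.8 and 31.1 CPM in CD, with a log2 fold change of 0.22 (adjusted p = 0.323). The lowest tested members were Mrpl23, Mrps36, Mrpl48 and Mrps33, at 0.316, 0.364, 0.929 and 1.48 CPM per kilobase. With the length of the principal transcript in place of merged exons, the order at the top moved, with Mrpl52 highest and Mrpl54 at rank 3, and the lowest 4 ranks of the 77, 74 to 77, were held by the same 4 genes.

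Near-identical pseudogenes held more counts than each of those lowest genes. A processed pseudogene is a copy of an mRNA written back into the genome without its introns, so it can match spliced reads of its parent gene. Of the 78 members, 18 had 25 annotated pseudogenes with at least 95% identity over at least 200 bases. Together the copies held 33533 counts and all members 259283, so the copies held 11.5% of the sum. Whether the copies' counts come from reads of their members or from transcripts of their own was not tested. In 10 cases a copy held more counts than its member. Mrpl23-ps1, which matches Mrpl23 at 100% over 540 bases, held 20.8 times its counts, and Mrps36-ps1 held 22.3 times those of Mrps36. Gm5776 held 5.45 times the counts of Mrps33, and Gm15946 held 5.35 times those of Mrps18c. Lower multiples were found for Mrpl21 and D9Wsu149 (2.61), Mrpl48 and Mrpl48-ps (2.45), Mrpl22 and Gm6997 (1.59), Mrps5 and Gm13328 (1.51) and Mrpl42 and Gm6419 (1.06).

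The sequences show how much or how little separates such a pair within a short stretch. Below are 90 coding bases across an exon junction of each member, which falls between bases 45 and 46, and the same stretch of its copy, read from GRCm38. Capitals mark the bases that differ. The stretch of Mrpl23 (chr7:142535083-142536114, plus strand, with the intron left out) and of Mrpl23-ps1 (chr2:74591708-74591797, minus strand) differ at 0 of the 90 bases.
Mrpl23: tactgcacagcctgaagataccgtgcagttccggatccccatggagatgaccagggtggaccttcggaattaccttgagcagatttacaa
Mrpl23-ps1: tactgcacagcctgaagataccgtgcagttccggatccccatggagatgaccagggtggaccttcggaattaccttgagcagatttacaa
Mrps33 (chr6:39802500-39805415, minus strand, intron left out) and Gm5776 (chr7:54412219-54412308, minus strand) differ at 1 base of this stretch.
Mrps33: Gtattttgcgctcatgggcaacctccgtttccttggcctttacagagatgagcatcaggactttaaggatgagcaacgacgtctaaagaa
Gm5776: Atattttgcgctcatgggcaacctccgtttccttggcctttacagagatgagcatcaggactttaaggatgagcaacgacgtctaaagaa
Mrps18c (chr5:100798816-100799596, plus strand, intron left out) and Gm15946 (chr17:12962808-12962897, plus strand) differ at 11 bases.
Mrps18c: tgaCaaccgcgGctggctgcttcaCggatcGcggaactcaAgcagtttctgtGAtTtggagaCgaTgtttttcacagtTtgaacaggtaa
Gm15946: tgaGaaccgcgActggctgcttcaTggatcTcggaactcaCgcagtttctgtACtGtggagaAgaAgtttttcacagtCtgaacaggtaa
A read from the Mrpl23 stretch that does not cross the junction matches both loci equally well. A read that crosses the junction is broken by the intron at Mrpl23 and runs unbroken in Mrpl23-ps1.

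The levels of each pair are set side by side. Mrpl23 had 1.84 and 1.90 CPM in HFD and 1.51 and 0.914 CPM in CD, a log2 fold change of 0.63 (SE 0.37, edgeR adjusted p = 0.292). Its copy Mrpl23-ps1 had 34.2 and 34.8 CPM in HFD and 30.1 and 29.2 CPM in CD, a log2 fold change of 0.22 (SE 0.14, edgeR adjusted p = 0.315). In both the HFD libraries lay above the CD libraries, and the copy had the smaller difference. The sum of both had a log2 fold change of 0.24 (adjusted p = 0.279). Leaving out 1 mouse moved that of Mrpl23 alone between 0.31 (without CD mouse 2) and 1.04 (without CD mouse 1). Mrps33 had 2.64 and 2.68 CPM in HFD and 1.57 and 2.96 CPM in CD, and the diets overlapped. Gm5776 had 17.2 and 13.2 CPM in HFD and 11.3 and 12.4 CPM in CD, without overlap. Gm15946 had 13.73 and 10.97 CPM in HFD and 3.95 and 9.54 CPM in CD, and Mrps36-ps1 had 11.6 and 11.5 CPM in HFD and 9.34 and 8.44 CPM in CD.

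**Figure D3:**
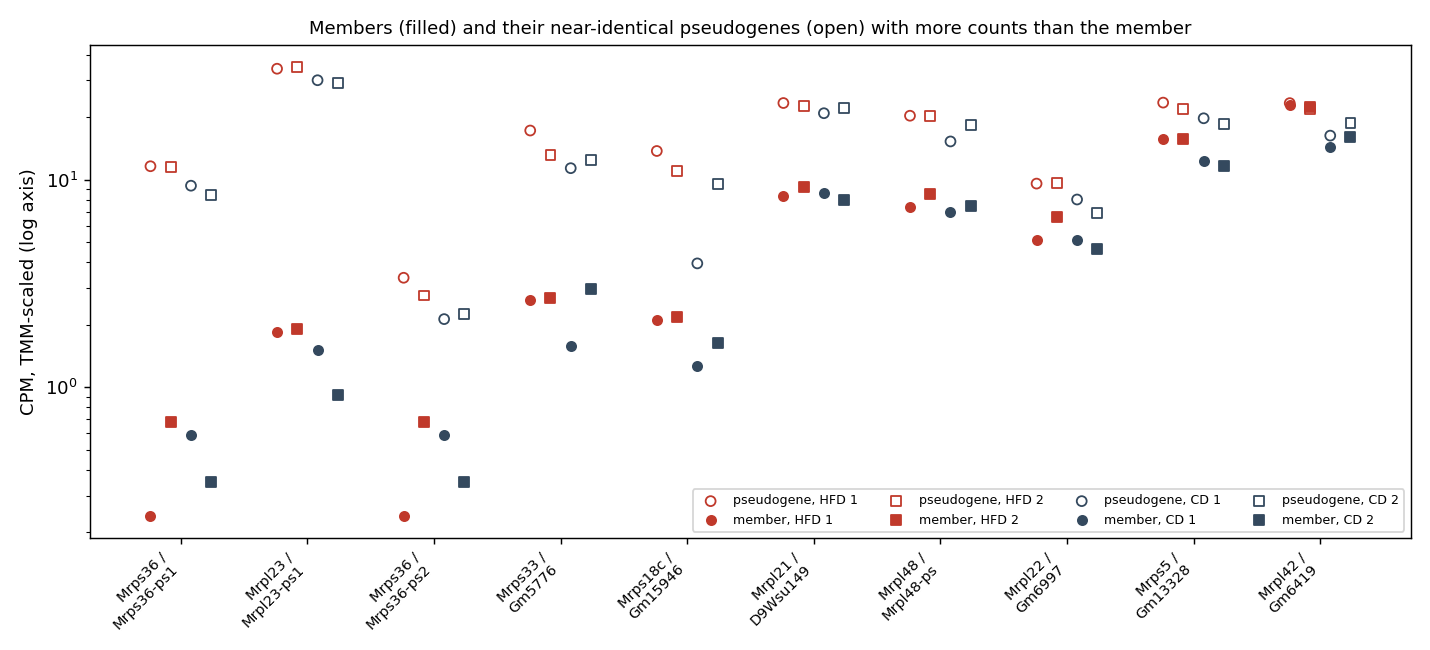
CPM on a log axis for each of the 10 pairs in which a near-identical pseudogene (open symbols) held more counts than its member (filled symbols), HFD mice in red and CD mice in dark blue, circles for mouse 1 and squares for mouse 2. The pseudogenes of Mrps36, Mrpl23, Mrps33 and Mrps18c lie far above their members, while Mrpl42 and Gm6419 nearly coincide.

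Of the 25 copies, 20 were tested, and 16 of these had a positive log2 fold change. That was so for 50.4% of all tested genes and for 60.7% in the level range of most members. Of the copies 0 were called in either direction, where 2.61% of all tested genes were called higher and 7.91% lower. Their median log2 fold change was 0.35. Summed, the copies had 258 and 246 CPM in HFD and 199 and 213 CPM in CD, and the 18 members that have a copy had 266 and 268 CPM in HFD and 225 and 223 CPM in CD. Members with a copy had a median log2 fold change of 0.25, and members without had 0.13, over 59 tested genes of which 48 were positive. With the counts of all copies added to their members, the family sum was 2097 and 2153 CPM in HFD and 1924 and 1861 CPM in CD, a ratio of 1.12. For Mrps36 the sum with its copies had a log2 fold change of 0.38 (SE 0.17, edgeR adjusted p = 0.188), where the gene alone had -0.02.

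Overlapping genes are a further limit on single values. Exons of 22 members overlap those of another gene with at least 200 counts, mostly on the opposite strand. As a share of the member's exonic bases, the widest of these overlaps were those of Mrps25 with Nr2c2 (4590 of 6576 exonic bases) and of Mrps34 with Mapk8ip3 (1309 of 2064). The library kit keeps the strand, but the strand setting of the counting is not stated.

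The log2 fold change of the members varied with the base composition of their transcripts. Over the 77 tested members it correlated with the GC content of the longest transcript at Pearson's r = -0.524 and Spearman's rho = -0.528, a description over genes that share the same 4 libraries. Over 18406 tested genes the same correlations were -0.174 and -0.248. The 38 members below the family's median GC content, with a typical GC content of 44.8%, had a median log2 fold change of 0.27. The 39 at or above it, at 52.8%, had 0.08. Mrpl1 stands at 41.6% GC and Mrps12 at 56.5%. After offsets for GC content and exon length were fitted per library, the family's correlation with GC content was 0.01 by Pearson's r and its median log2 fold change was 0.11. Under that correction 1 member was called higher, where 3.86% of all tested genes were. It was Mrps2, with a log2 fold change of 0.54 and an adjusted p of 0.0440. The sign turned for 10 members, of which 8 had been positive. Among them were Mrps9, at -0.17 after the correction and 0.26 before, and Mrpl15, at -0.15 after and 0.18 before. Whether base composition has a part in the family's shift was not tested beyond this correction.

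**Figure D4:**
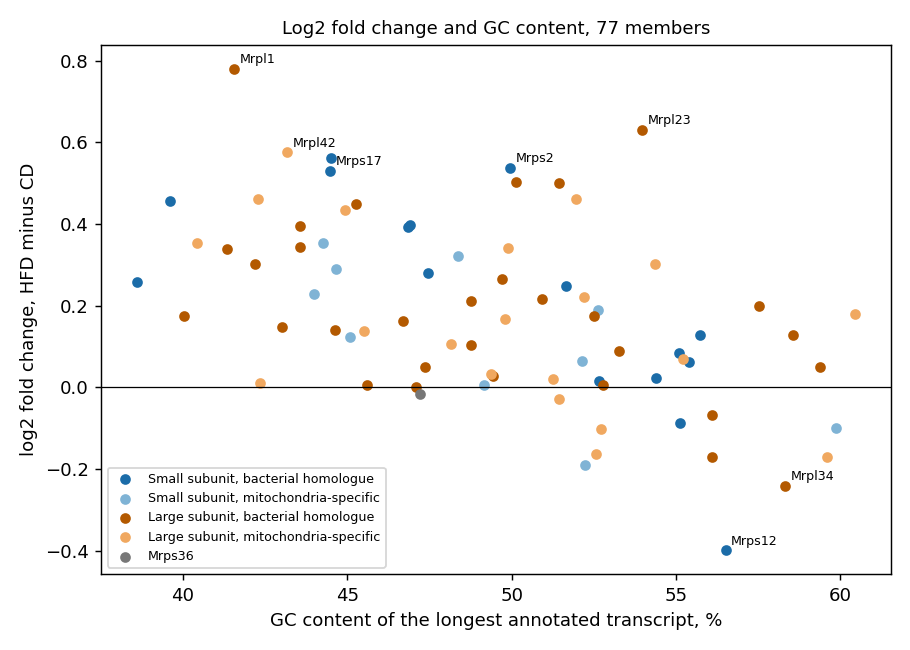
Log2 fold change of HFD over CD against the GC content of the longest annotated transcript in percent, 1 point per tested member (77), coloured by class. Members of low GC content, such as Mrpl1 and Mrpl42, lie mostly above 0, and the points below 0 lie mostly at higher GC content, such as Mrpl34 and Mrps12; Mrpl23 lies off this pattern.

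The members are scattered over 17 chromosomes, and some motifs were more frequent in their promoters than in all promoters. RefSeq promoter windows (GRCm38.p6), 250 bases before to 50 after a start, were matched by symbol for 69 members and gave 75 windows. Both strands were searched for 5 motifs, and each share is set beside that of all 32851 windows of the table. The ETS family motif CCGGAAG was in 26 windows (34.7%, against 8.86% of all windows). The NRF1 motif, a palindrome bound by a known activator of nuclear genes for mitochondria, was in 13 (17.3% against 4.6%), and the YY1 motif AAGATGGCG was in 8 (10.7% against 1.40%). The CCAAT box was in 30 (40.0% against 37.4%), and TATAA was in 10 (13.3% against 24.9%). The member windows were also richer in GC, with a median of 58.7% against 52.7%, and the windows compared were not matched for GC content. A match is a run of letters, not a measured binding site.

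The windows of Mrps18b and Mrps12 are shown because each holds nearly all of the stretch between the member's start and that of a neighbour transcribed the other way and runs on into that neighbour, and that of Mrpl42 because it was among the members of smallest p. Capitals mark the ETS motif in the first and second, on the opposite strand in Mrps18b, and the YY1 motif in the third. The windows are chr17:35916391-35916690, chr7:28741772-28742071 and chr10:95501900-95502199, all on the minus strand.
Mrps18b: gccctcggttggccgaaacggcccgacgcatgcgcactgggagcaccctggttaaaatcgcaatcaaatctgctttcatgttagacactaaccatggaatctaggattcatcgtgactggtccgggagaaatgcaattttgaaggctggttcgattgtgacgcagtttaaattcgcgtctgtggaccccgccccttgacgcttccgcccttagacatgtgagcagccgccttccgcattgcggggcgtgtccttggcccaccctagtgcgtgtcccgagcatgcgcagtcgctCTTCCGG
Mrps12: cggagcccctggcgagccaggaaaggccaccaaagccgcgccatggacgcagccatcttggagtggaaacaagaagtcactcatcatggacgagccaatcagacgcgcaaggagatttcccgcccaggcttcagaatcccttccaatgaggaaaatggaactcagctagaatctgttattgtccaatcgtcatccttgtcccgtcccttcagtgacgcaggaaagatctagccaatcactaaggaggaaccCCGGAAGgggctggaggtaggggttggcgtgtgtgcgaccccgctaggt
Mrpl42: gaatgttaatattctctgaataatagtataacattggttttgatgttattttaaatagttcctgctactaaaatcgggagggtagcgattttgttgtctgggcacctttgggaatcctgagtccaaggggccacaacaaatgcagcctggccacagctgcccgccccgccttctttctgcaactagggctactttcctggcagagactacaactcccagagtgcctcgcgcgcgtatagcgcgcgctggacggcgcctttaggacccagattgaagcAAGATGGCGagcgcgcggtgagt

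Of the 77 tested members, 18 (23.4%) start within 1000 bases of a protein-coding gene on the opposite strand that runs away from them, where 9.72% of the 13607 tested protein-coding genes do. In 17 of these pairs both genes were tested, and in 11 the log2 fold changes had the same sign. The neighbour of Mrps18b differed most from its member. Ppp1r10, which encodes a regulatory subunit of protein phosphatase 1 in the nucleus, starts 45 bases from Mrps18b. It had 64.9 and 70.8 CPM in HFD, against 313 and 295 CPM in CD, a log2 fold change of -2.16 (SE 0.15, edgeR adjusted p = 0.00515), the only call among these neighbours, and it was called without each mouse in turn. Mrps18b itself, at 0.19, had a difference of its own error's size and in the other direction. Sars2, the mitochondrial seryl-tRNA synthetase gene 172 bases from Mrps12, had 11.6 and 12.7 CPM in HFD and 16.6 and 15.8 CPM in CD. Its log2 fold change of -0.42 (SE 0.17, adjusted p = 0.159) was close to the -0.40 of Mrps12, and in both genes HFD lay below CD.

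Further ribosome proteins carry other names, and 5 of them were listed. Of the 5, 2 had a positive log2 fold change and 0 were called, and the median of the list was -0.08. Ptcd3, a pentatricopeptide repeat protein of the small subunit, had 25.8 and 25.7 CPM in HFD and 15.7 and 18.4 CPM in CD (log2 fold change 0.59, adjusted p = 0.0674). Chchd1, also of the small subunit, had a log2 fold change of 0.56 (adjusted p = 0.107). Gadd45gip1, of the large subunit, had 15.1 and 19.3 CPM in HFD and 25.5 and 22.3 CPM in CD (log2 fold change -0.48, adjusted p = 0.148). Aurkaip1, at -0.26, and Dap3, at -0.08, are small subunit proteins.

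Genes that act with the ribosome gave few calls, as did all tested genes, of which 2.61% were called higher and 7.91% lower. Of 18 translation factors 0 were called, with a median of 0.07, and the smallest p belonged to Guf1, an elongation factor 4 homologue, with 21.3 and 19.0 CPM in HFD and 10.2 and 13.3 CPM in CD (log2 fold change 0.78, adjusted p = 0.0581). Of 17 mitochondrial tRNA synthetases 1 was higher and 0 lower, with a median of 0.08. It was Mars2, which loads methionine, with 10.8 and 9.59 CPM in HFD and 4.81 and 5.83 CPM in CD (log2 fold change 0.94, SE 0.22, adjusted p = 0.048). The call of Mars2 ended without HFD mouse 1 (adjusted p = 0.284), without HFD mouse 2 (0.163) and without CD mouse 1 (0.0613). Pars2, for proline, had a log2 fold change of 0.86 (adjusted p = 0.0658). Of 30 genes for ribosome assembly and ribosomal RNA modification 0 were called, with a median of 0.03; the smallest p belonged to Mrm1 (-0.46), Mterf4 (0.58) and Dhx30 (-0.31). Mrm1 modifies the large ribosomal RNA.

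Genes that keep and transcribe mitochondrial DNA gave 0 higher and 1 lower of 20, with a median of 0.11. Of all tested genes, 2.61% were called higher and 7.91% lower. The lower gene was Polg2, the accessory subunit of the mitochondrial DNA polymerase, with 8.81 and 8.42 CPM in HFD, against 25.9 and 36.2 CPM in CD (log2 fold change -1.85, SE 0.21, adjusted p = 0.0121). It was called without each mouse in turn, with log2 fold changes between -2.07 and -1.59. Tfam, which packs mitochondrial DNA and starts its transcription, had a log2 fold change of 0.46 (adjusted p = 0.0888), and Mterf1a had 1.32 (adjusted p = 0.0544). Of 10 tested nuclear regulators of mitochondrial genes 0 were called, with a median of -0.18. Among them Pprc1, a coactivator of NRF1 targets, had 107 and 101 CPM in HFD and 152 and 140 CPM in CD (log2 fold change -0.50, adjusted p = 0.0738), Myc had 0.37 and Ppargc1b -0.41.

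The products served by the mitochondrial ribosome were set beside it. Of 81 nuclear genes of oxidative phosphorylation 2 were higher and 0 lower, a share of higher calls near the 2.61% of all tested genes, with a median of 0.09. Ndufc2, a subunit of complex I, had 59.1 and 58.5 CPM in HFD and 38.3 and 38.3 CPM in CD (log2 fold change 0.62, adjusted p = 0.0400), and Uqcrb, a subunit of complex III, had a log2 fold change of 0.71 (adjusted p = 0.0473). Without HFD mouse 1, HFD mouse 2 or CD mouse 1 neither passed, with adjusted p of 0.217, 0.168 and 0.0518 for Ndufc2 and 0.303, 0.166 and 0.0643 for Uqcrb. Of the 13 mRNAs of the mitochondrial genome 7 were tested, of which 2 were higher: mt-Nd1 (log2 fold change 1.64, adjusted p = 0.0475) and mt-Co1 (1.27, adjusted p = 0.0476). Neither passed without HFD mouse 1, where mt-Nd1 had 1.02 (adjusted p = 0.144) and mt-Co1 had 0.96 (adjusted p = 0.198), or without CD mouse 1 (adjusted p = 0.0922 and 0.0569), and mt-Co1 did not without HFD mouse 2 (adjusted p = 0.0576). The median of the 7 was 1.42, and after the correction for GC content and exon length it was 0.76, with 1 called higher. The sum of the 13 was 24710 and 14374 CPM in HFD and 6515 and 9532 CPM in CD, so HFD mouse 1 was far above HFD mouse 2. Of the untested ones, mt-Co2, mt-Co3, mt-Atp6, mt-Atp8 and mt-Nd4l are listed at 0 in the count table, although every cell uses them, so these sums do not cover the mitochondrial transcriptome. Cytosolic ribosomal protein genes gave 0 calls among 78 tested, with a median of -0.01.

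**Figure D5:**
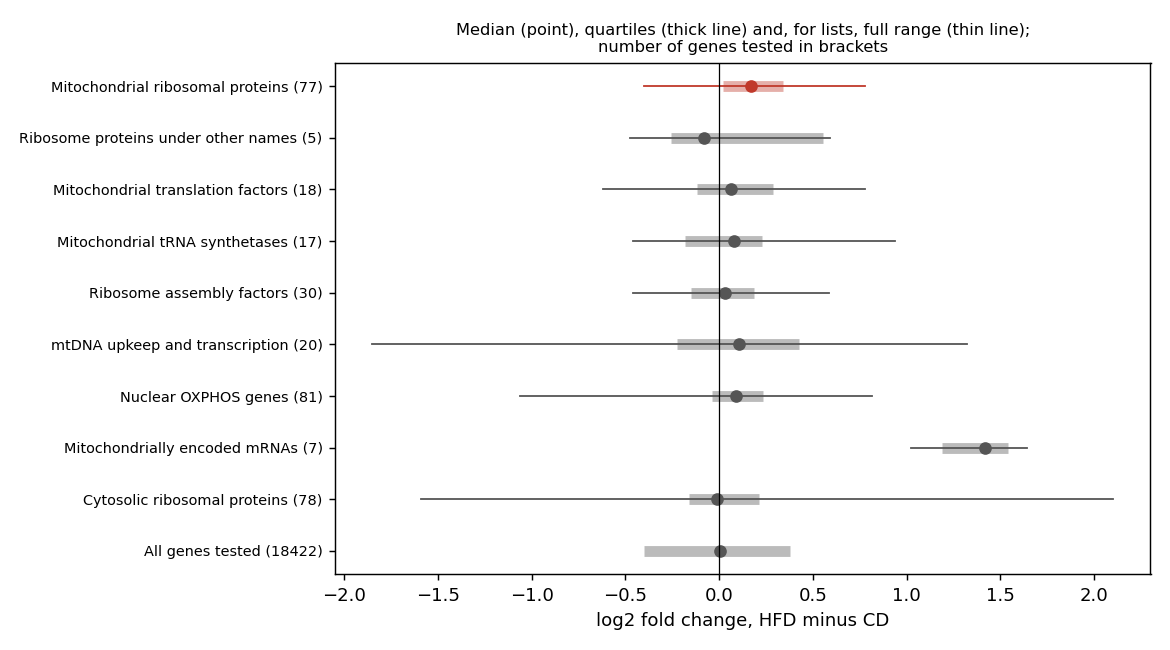
Median log2 fold change of HFD over CD (points), the span between the quartiles (thick lines) and, for each list, its full range (thin lines), with the number of tested genes in brackets. The mitochondrial ribosomal proteins at the top have a median of 0.17 and quartiles of 0.02 and 0.34. Those of the nuclear OXPHOS (oxidative phosphorylation) genes are -0.04 and 0.23. The mitochondrially encoded mRNAs lie apart at 1.42, and all tested genes are centred near 0.

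Markers of other cells and of cell division also differed between the libraries. For comparison, 2.61% of all tested genes were called higher and 7.91% lower. Of 24 cell cycle genes 7 were higher and 0 lower, with a median log2 fold change of 0.65 and a sum of 2921 and 2563 CPM in HFD and 1467 and 2227 CPM in CD. CD mouse 1 was the lowest, as it was for Mrpl1. The sum of the ribosomal protein family went the other way within CD, at 1725 CPM in CD mouse 1 and 1648 CPM in CD mouse 2. The count of higher cell cycle genes was 0 without HFD mouse 1, 1 without HFD mouse 2, 6 without CD mouse 1 and 18 without CD mouse 2. Over all tested genes those fits called 71, 117, 855 and 1934 higher, where the full fit called 480. Of 12 fibroblast and pericyte markers 7 were higher, with sums of 2260 and 2280 CPM in HFD and 1165 and 871 CPM in CD. Most of these sums came from Col3a1, with 1690 and 1540 CPM in HFD and 890 and 674 CPM in CD. Fap was the 1 marker with both HFD libraries below both CD libraries, at 0.80 and 0.60 CPM against 1.70 and 1.02 CPM. Of 10 epithelial markers, which MC38 cells could bring, 9 were lower, with sums of 41.7 and 48.3 CPM in HFD and 167 and 141 CPM in CD. The largest part of these sums was Cdh1, with 38.5 and 45.2 CPM in HFD and 144 and 57.0 CPM in CD. Each other marker of this list was higher in CD mouse 2 than in CD mouse 1. Krt8, for example, had 0.080 and 0.052 CPM in HFD and 2.31 and 16.2 CPM in CD, and Cldn3 was at 0 in both HFD libraries. Of 9 tested neutrophil markers 6 were lower, with sums of 193 and 171 CPM in HFD and 394 and 193 CPM in CD. Most of these sums came from Mmp9, with 104 and 81.5 CPM in HFD and 124 and 73.5 CPM in CD, and Csf3r, with 80.8 and 83.0 CPM in HFD and 138 and 71.6 CPM in CD. S100a9 had 2.75 and 2.19 CPM in HFD and 55.4 and 24.8 CPM in CD, and Ly6g was at 0 in both HFD libraries. T and NK cell markers summed to 40.6 and 35.8 CPM in HFD and 123 and 33.5 CPM in CD, with 1 of 12 higher and 1 lower. Dendritic cell markers summed to 145 and 169 CPM in HFD and 230 and 127 CPM in CD, with 0 of 10 higher and 2 lower. Without CD mouse 2, 6 T and NK cell markers and 5 dendritic cell markers were lower. Of the 10 macrophage markers 0 were called, with sums of 7918 and 8149 CPM in HFD and 9801 and 9360 CPM in CD. Without HFD mouse 1 or without HFD mouse 2, the lower epithelial and neutrophil markers numbered 1 each and the higher fibroblast markers 5. The part of these cells in the family's values was not tested.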

How the data were processed

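Counts of reads per gene were deposited for 4 libraries, whole numbers that the authors had not normalised, for 53379 Ensembl mouse identifiers. Per the labels' protocols, RNA came from an RNeasy extraction, and libraries of polyA RNA were prepared with the TruSeq Stranded mRNA kit. The submitters' processing notes name DESeq2 1.24.0, BWA 0.7.12, FastQC 0.11.5 and cutadapt 1.15 and the builds mm10 and GRCm38. The program that counted the reads, whether it used the strand, how it placed reads with several matches and its gene models were not given in the sources used here.

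Symbols were matched by identifier for 53274 identifiers, from GENCODE M21 on GRCm38. Coordinates are given only where the identifier's version was the same, for 70 of the 78 members. edgeR's filterByExpr (count of at least 10, total of at least 15) kept 18422 genes. They were tested for HFD over CD with edgeR 4.0.16 in R 4.3.3 (TMM scaling, robust glmQLFit, glmQLFTest) and no covariate. The Benjamini-Hochberg adjustment ran over all genes tested, at a threshold of 0.05. The SE was derived from the log2 fold change and its F statistic. The alternatives were DESeq2 1.42.0, other scalings, no filter, leaving out each mouse, the replicate number as a block, splines of GC content and exon length with 5 degrees of freedom per library, and counts summed with those of pseudogenes. Pseudogene copies were found with BLAST+ 2.17.0. Of these steps, only the edgeR fit without covariates was tested on simulated counts, with a fixed spread between libraries. It recovered 93 of 100 genes changed by 1 on the log2 scale and 100 of 100 changed by 2, with 12 false calls. Changes as small as those of the family were not simulated. Lists are described by counts and medians, with no test over a list. The counts carry no molecular identifiers.

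The members and the gene lists were chosen with earlier results of these data known. The named members are the 6 of highest and the 6 of lowest log2 fold change, the 4 of highest and the 4 of lowest CPM per kilobase, the Mrps18 relatives, Mrps36 and each member that failed the filter, with the 5 ribosome proteins under other names and the 3 genes of smallest p of each other list. The other members and the pseudogenes, head-to-head neighbours and markers given by name were added after their values were seen.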

Additional observations from a re-analysis of the deposited data

How the results depend on the processing

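The positive median log2 fold change of the family, 0.17, kept its sign under every alternative run. It was 0.22 with no filter on low counts, 0.11 after correction for GC content and exon length, 0.12 with that correction and the replicate block together, and 0.13 without the members that have a near-identical pseudogene. Leaving out 1 mouse gave 0.12 to 0.25, lowest without CD 2 and highest without CD 1. The count of members called higher, 0 in the report, was 4 with no filter on low counts (Mrpl1, Mrps17, Mrps2 and Mrpl42), 1 after the GC and length correction (Mrps2), and 0 to 4 when 1 mouse was left out. The 4 were found without CD 2 (Mrpl1, Mrpl51, Mrps17 and Mrpl42), and a fit without a mouse takes that diet's spread from the other diet's pair. No alternative called a member lower. The cause of these moves was not tested.

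All genes called higher, 480 in the report, were 1080 by DESeq2 and 1552 with no filter, and all genes called lower, 1457, were 2231 with no filter. Leaving out 1 mouse gave 71 to 1934 higher and 300 to 2534 lower, fewest without HFD 1 and most without CD 2.

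The sign turned for 10 of the 77 tested members after the GC and length correction, and for 5 named members, none of them called, under other alternatives. Mrpl43 had 0.017 and Mrps36 0.026 with no filter, and Mrps36 had 0.38 with its pseudogenes added, whether those named -ps or all copies. Leaving out 1 mouse gave Mrpl52 a log2 fold change of -0.47 (without HFD 2) to 0.12 (without HFD 1), Mrpl43 -0.18 (without CD 2) to 0.15 (without CD 1), Mrps33 -0.15 (without CD 1) to 0.76 (without CD 2), Mrps36 -0.92 (without HFD 2) to 0.56 (without HFD 1), and Mrps18a -0.0056 (without HFD 2) to 0.18 (without HFD 1).

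The labels give mice 1 and 2 in each diet, with nothing that pairs them. With the replicate block the median was 0.17 and 0 members were called. Deviations of same-numbered libraries from their diet means correlated at -0.188 over 10312 genes. A crossed replicate block, added after the data were seen, called 1 member (Mrps17) and 909 genes higher. Depth limits Mrps36 and Mrpl53 most, at 67 counts or fewer over the 4 libraries.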
